A study of Mus musculus with 8 samples.

Results

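The genes described here are 10 genes of MHC class I antigen presentation (B2m, H2-K1, H2-D1, H2-T3, Tap1, Tap2, Tapbp, Psmb8, Psmb9 and Nlrc5), of 24346 gene symbols measured in all. They were chosen by symbol, and all 10 were found in each of 8 RNA sequencing libraries of colon epithelial cells from C57BL/6J mice labelled as given no treatment. The groups were St6galnac6-/- mice, null for a sialyltransferase, B3galt5D116A mice, with a substitution in a galactosyltransferase, B3gnt7-/- mice, null for an N-acetylglucosaminyltransferase, and wild-type mice. Each group had 2 libraries, 1 male and 1 female. The comparisons ask how transcripts of the colon epithelium differ between mice changed in 1 glycan-building enzyme and wild-type mice. Age, batch and the deleted stretch of each null allele are not in the labels, nor is the number of animals behind a library.

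MHC class I molecules show peptides from inside the cell to CD8+ T cells. Proteasomes cut proteins into peptides, and in many immune and interferon-exposed cells the catalytic subunits Psmb8 and Psmb9 replace Psmb5 and Psmb6. The transporter Tap1-Tap2 moves the peptides into the endoplasmic reticulum, where tapasin (Tapbp) helps to load them onto a heavy chain such as H2-K1 or H2-D1 paired with the light chain B2m. Nlrc5 is a transactivator of class I genes and acts with factors bound at their promoters. H2-T3 encodes the thymus leukaemia antigen, a nonclassical chain known from mouse intestinal epithelium that binds CD8αα and does not need Tap.

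Values are FPKM, fragments per kilobase of transcript scaled to mapped fragments, so levels of different genes can be set side by side per length. Between 11392 and 11663 genes reached 1 FPKM in a library, and FPKM summed to 518482 to 639537. The tables hold no counts. Relative depth, estimated from the spacing of the lowest values (under 0.15 FPKM), was 1.18 to 1.45 in mutant libraries, against 1 and 1.05 in the wild-type male and female. The 12 epithelial markers summed to 19111 to 33177 FPKM per library, with Epcam at 864 to 953 FPKM and the more variable Car1 at 5241 to 16569 FPKM, highest in the B3galt5D116A female. The 13 measured lymphocyte markers summed to 12.6 to 40.1 FPKM per library and 12 myeloid markers to 27.8 to 39.8 FPKM, of which Cd14 made up the larger share in each library. Of the other 11 myeloid markers 8 were above 0 in every library, among them Cd68 (0.939 to 3.62 FPKM) and Lyz2 (0.894 to 3.79 FPKM), while Adgre1 was listed at 0 in 4. The 6 B and plasma cell markers summed to 0.212 to 0.922 FPKM. Stromal and endothelial markers (12 genes) summed to 26.9 FPKM in the B3gnt7-/- female library and to 4.11 to 5.45 FPKM in the other 7. In that female Dcn alone was at 18.9 FPKM, and Col3a1 had its highest value, 3.61 FPKM. Acta2 had its lowest value there, 0.0740 FPKM, and Pecam1 (1.16 FPKM) lay within its range in the other libraries. As a check of the labels, St6galnac6 was at 218 and 232 FPKM for St6galnac6-/- against 368 and 343 for wild-type, and B3gnt7 at 68.8 and 142 FPKM for B3gnt7-/- against 215 and 189.8 for wild-type (male and female each). Neither passed the test described below (limma adjusted p = 0.340 and 0.657), and transcript remained in both. B3galt5 carries a substitution, so its level does not check the label.

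Of the members, 8 lie on mm10 chromosome 17, B2m lies on chromosome 2 and Nlrc5 on chromosome 8 (GENCODE M21). Tapbp (33915899 to 33929292) and H2-K1 (33996017 to 34000347) come first on chromosome 17. Psmb9 (34181987 to 34187764), Tap1 (34187553 to 34197225), Psmb8 (34197721 to 34201454) and Tap2 (34203527 to 34216321) follow as neighbours, then H2-D1 (35262730 to 35267499) and H2-T3 (36185572 to 36190287). B2m spans 122147686 to 122153083 and Nlrc5 spans 94434356 to 94527272. Promoter windows of 300 bases, from 250 before to 50 after the RefSeq start site (build GRCm38.p6), were found for 8 of the 10, with none for Tap2 and Nlrc5. The start sites used for Psmb8 (34198195), Tapbp (33919478) and H2-D1 (35263094) lie inside the spans given above. Other starts were not searched, so a lack of matches holds for the start used. The 5 windows printed here show how the classical heavy chains, the nonclassical chain H2-T3, the light chain and the transporter differ at their starts. Capitals mark matches, on either strand, to the interferon regulatory factor core AANNGAAA, the CREB/ATF half-site TGACG, the CCAAT box and the NF-κB core GGGNNTTCC. No marked matches overlap.
H2-K1 (chr17:34000298-34000597, minus strand): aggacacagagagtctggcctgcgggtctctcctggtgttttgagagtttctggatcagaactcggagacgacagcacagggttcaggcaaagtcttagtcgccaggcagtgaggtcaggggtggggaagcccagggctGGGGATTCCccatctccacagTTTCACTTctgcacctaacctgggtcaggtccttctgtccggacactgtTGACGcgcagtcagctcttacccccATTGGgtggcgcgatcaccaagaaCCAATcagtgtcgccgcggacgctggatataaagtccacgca
H2-D1 (chr17:35262844-35263143, plus strand): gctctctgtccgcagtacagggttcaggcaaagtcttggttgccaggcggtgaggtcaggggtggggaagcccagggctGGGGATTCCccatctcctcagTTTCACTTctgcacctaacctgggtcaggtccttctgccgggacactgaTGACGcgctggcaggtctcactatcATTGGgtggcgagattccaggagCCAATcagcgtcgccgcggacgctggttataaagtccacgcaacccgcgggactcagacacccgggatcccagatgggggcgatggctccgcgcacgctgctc
H2-T3 (chr17:36190102-36190401, minus strand): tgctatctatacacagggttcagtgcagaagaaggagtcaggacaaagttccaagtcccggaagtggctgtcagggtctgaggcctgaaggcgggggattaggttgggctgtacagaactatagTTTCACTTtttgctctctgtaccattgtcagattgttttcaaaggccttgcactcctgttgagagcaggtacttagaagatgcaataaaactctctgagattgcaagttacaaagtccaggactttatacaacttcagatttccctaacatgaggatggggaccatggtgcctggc
B2m (chr2:122147437-122147736, plus strand): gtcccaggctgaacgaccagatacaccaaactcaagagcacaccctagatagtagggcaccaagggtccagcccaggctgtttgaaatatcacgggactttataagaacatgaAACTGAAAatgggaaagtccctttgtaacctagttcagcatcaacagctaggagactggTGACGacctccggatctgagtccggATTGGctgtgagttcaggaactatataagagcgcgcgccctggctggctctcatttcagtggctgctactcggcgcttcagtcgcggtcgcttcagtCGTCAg
Tap1 (chr17:34187306-34187605, plus strand): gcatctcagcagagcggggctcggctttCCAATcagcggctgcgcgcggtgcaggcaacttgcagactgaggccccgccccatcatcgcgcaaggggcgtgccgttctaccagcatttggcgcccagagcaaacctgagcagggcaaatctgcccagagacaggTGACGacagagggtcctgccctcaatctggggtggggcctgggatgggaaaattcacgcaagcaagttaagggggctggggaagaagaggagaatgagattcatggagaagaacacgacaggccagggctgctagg

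The H2-K1 and H2-D1 windows were 88.3% identical over 239 aligned bases and held the same kinds of match in the same order. The H2-T3 window was 67.6% identical to that of H2-K1 over 225 aligned bases, where the H2-K1 and B2m windows had 67.1%. H2-T3 held the interferon regulatory factor core and neither TGACG nor CCAAT. Tap1 and Psmb9 are transcribed away from each other from starts 226 bases apart, so that their windows share 275 bases. TGACG and CCAAT together were present in 5 of the 8 member windows (B2m, H2-K1, H2-D1, Tap1 and Psmb9), and in 7.73% of 32851 promoter windows. The matches of Tap1 and Psmb9 are the same bases read from opposite strands, and the H2-K1 and H2-D1 windows are near copies. The 5 windows are thus not independent, and the same holds for the counts of single motifs. The core AANNGAAA was present in 4 member windows (23.9% of all windows), TGACG in 5 (20.8%), CCAAT in 6 (37.4%) and GGGNNTTCC in 2 (5.82%). A match is a string of letters and not a measured binding site.

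**Figure D1:**
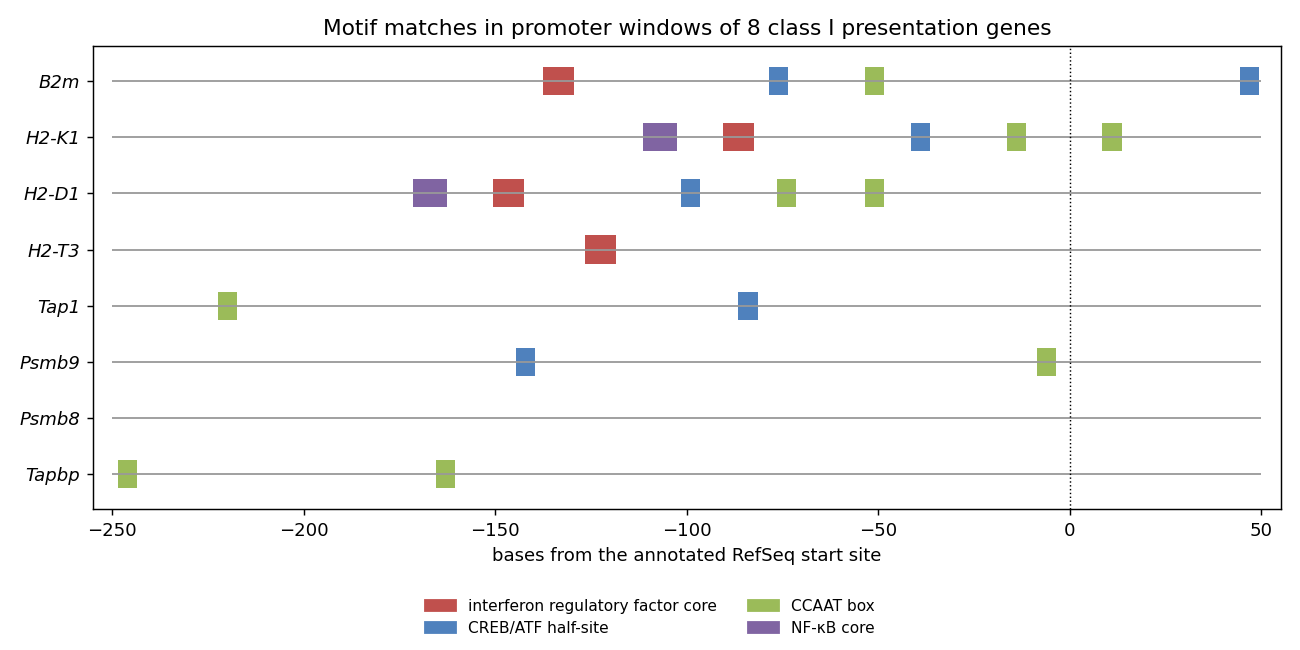
Matches to 4 motifs in the 300-base promoter windows of 8 members, with the distance from the RefSeq start site in bases on the horizontal axis (the first transcribed base is 1). H2-K1 and H2-D1 carry the same series of matches, H2-T3 a single match at -126 to -119, and Psmb8 none.

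The light chain and the classical heavy chains were the most abundant members in each of the 8 libraries. B2m stood at 456 FPKM (male) and 458 FPKM (female) for St6galnac6-/-, 433 and 535 for B3galt5D116A, 593 and 334 for B3gnt7-/- and 474 and 426 for wild-type. Its highest and lowest values were thus the male and the female of one genotype, B3gnt7-/-. H2-K1 stood at 426 FPKM (male) and 444 FPKM (female) for St6galnac6-/-, 464 and 502 for B3galt5D116A, 478 and 425 for B3gnt7-/- and 478 and 416 for wild-type. H2-D1 stood at 345 FPKM (male) and 376 FPKM (female) for St6galnac6-/-, 359 and 362 for B3galt5D116A, 369 and 321 for B3gnt7-/- and 379 and 345 for wild-type. All 3 overlapped between each mutant and wild-type. H2-D1 and H2-K1 had the lowest coefficients of variation of the 9 members tested, 5.40% and 6.85% over the 8 libraries. The median of the 9 was 16.5%, and that of 11537 tested genes, not matched for level, was 12.5%.

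H2-K1 was above H2-D1 in every library, by 1.18 to 1.39 times. Paralogous class I genes share sequence. Of windows of 50 bases in the transcript, 8.79% of those of H2-K1 and 14.3% of those of H2-D1 also occurred in transcripts of other genes, and 1.24% of those of H2-T3, so these 3 levels are uncertain where reads could be split between genes. The ratio of B2m to the sum of H2-K1 and H2-D1 was 0.591 (male) and 0.558 (female) for St6galnac6-/-, 0.526 and 0.619 for B3galt5D116A, 0.6998 and 0.448 for B3gnt7-/- and 0.552 and 0.5603 for wild-type. Its extremes were again the B3gnt7-/- male and female.

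H2-T3 stood at 25.6 FPKM (male) and 18.8 FPKM (female) for St6galnac6-/-, 20.2 and 39.5 for B3galt5D116A, 31.3 and 24.9 for B3gnt7-/- and 21.6 and 25.4 for wild-type. It was thus well below the classical chains, 2.24% to 4.37% of the summed FPKM of the 3 chains, and it had the highest coefficient of variation of the 9 members tested, 25.9%. The B3galt5D116A female library was the highest, and its male counterpart the second lowest. Lymphocyte markers summed to 22.3 (male) and 18.97 (female) for St6galnac6-/-, 12.6 and 36.8 for B3galt5D116A, 40.1 and 35.1 for B3gnt7-/- and 25.5 and 20.7 for wild-type, in FPKM. The B3galt5D116A female was above the male in both measures, and the part of other cells in the H2-T3 level was not tested. In such bulk samples fewer cells of a type and less RNA per cell cannot be told apart.

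**Figure D2:**
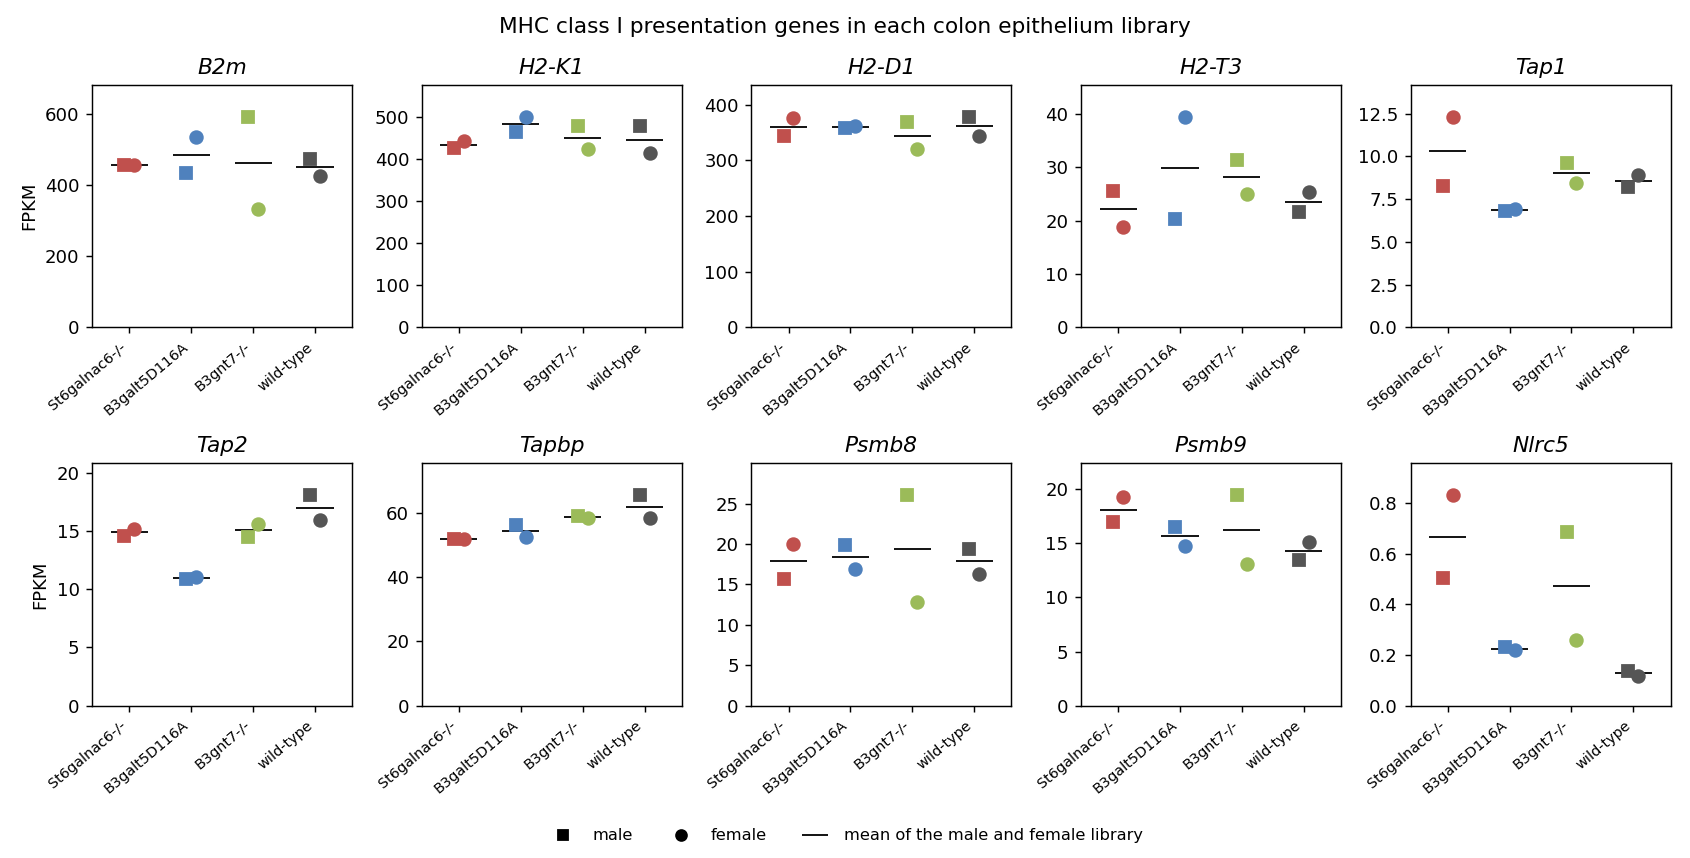
FPKM of the 10 members (vertical axes, from 0) in each library, by genotype (horizontal axes), with squares for male and circles for female libraries and a line at the mean of both. Tap2 in B3galt5D116A lies at 10.8 and 11.04 FPKM, below every other library, while the B3gnt7-/- male and female hold the highest and lowest B2m, Psmb8 and Psmb9.

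Of the 9 members tested, Tap2 had the smallest p against wild-type, in B3galt5D116A. Tap2 stood at 14.6 FPKM (male) and 15.2 FPKM (female) for St6galnac6-/-, 10.8 and 11.04 for B3galt5D116A, 14.5 and 15.6 for B3gnt7-/- and 18.1 and 15.9 for wild-type. Both wild-type libraries were above all 6 mutant libraries, and both B3galt5D116A libraries were below the other 6. In 8.32% of tested genes all 6 mutant libraries were below both wild-type libraries. How often both libraries of 1 genotype lie below the other 6 was not counted over all genes, here or for Tap1 and Tapbp. The mean was 10.9 ± 0.139 FPKM in B3galt5D116A and 17.0 ± 1.55 FPKM in wild-type (SD, n = 2 each), a log2 difference of -0.59 (SE 0.12, 95% interval -0.87 to -0.31). It did not pass (limma unadjusted p = 0.00158, adjusted p = 0.256 over 11537 genes), and over the alternatives tried its adjusted p was 0.113 to 0.812.

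Tap1, the partner of Tap2, stood at 8.25 FPKM (male) and 12.3 FPKM (female) for St6galnac6-/-, 6.78 and 6.89 for B3galt5D116A, 9.61 and 8.46 for B3gnt7-/- and 8.22 and 8.89 for wild-type. Both B3galt5D116A libraries were again the lowest, with a log2 difference from wild-type of -0.29 (SE 0.17, limma adjusted p = 0.529). The ratio of Tap2 to Tap1 was 1.76 (male) and 1.23 (female) for St6galnac6-/-, 1.5999 and 1.601 for B3galt5D116A, 1.51 and 1.84 for B3gnt7-/- and 2.201 and 1.79 for wild-type. It was highest in the wild-type male and lowest in the St6galnac6-/- female.

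Tapbp stood at 51.9 FPKM (male) and 51.8 FPKM (female) for St6galnac6-/-, 56.1 and 52.4 for B3galt5D116A, 58.8 and 58.2 for B3gnt7-/- and 65.5 and 58.2 for wild-type. The St6galnac6-/- libraries were the lowest, with a mean of 51.8 ± 0.0685 FPKM against 61.8 ± 5.15 FPKM in wild-type (SD, n = 2 each) and a log2 difference of -0.25 (SE 0.11, limma adjusted p = 0.562). Tap2, Tapbp and Psmb8 overlap annotated antisense genes, B2m, Tap1, Psmb9 and Nlrc5 overlap other genes on the opposite strand, and on their own strands Tapbp overlaps Zbtb22 and Nlrc5 overlaps Mir7072. The library kit is stranded per the labels, but how the strand was used in counting is not given in the sources used here, so reads of such partners may not be told apart.

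Psmb8 stood at 15.7 FPKM (male) and 20.01 FPKM (female) for St6galnac6-/-, 19.8 and 16.9 for B3galt5D116A, 26.1 and 12.8 for B3gnt7-/- and 19.4 and 16.3 for wild-type. As for B2m, the B3gnt7-/- male and female held the highest and the lowest value, and every mutant overlapped wild-type. The B3gnt7-/- female is the library with the high stromal marker sum, to which Dcn gave the most. It also had the lowest FPKM total of the 8 libraries, 518482, against 601480 in the B3gnt7-/- male. The part of stromal cells in its values was not tested, nor was that of the FPKM total. Without the B3gnt7-/- female the log2 difference of B3gnt7-/- from wild-type was 0.43 for B2m and 0.51 for Psmb8, against -0.013 and 0.039 with it. These were the upper ends of the ranges on leaving out 1 library, -0.45 to 0.43 for B2m and -0.43 to 0.51 for Psmb8. The sign thus depended on which library was left out. Psmb9 stood at 17.01 FPKM (male) and 19.2 FPKM (female) for St6galnac6-/-, 16.5 and 14.8 for B3galt5D116A, 19.5 and 13.1 for B3gnt7-/- and 13.5 and 15.1 for wild-type. Both St6galnac6-/- libraries were above both wild-type libraries, with a log2 difference of 0.32 (SE 0.19, 95% interval -0.12 to 0.76, limma adjusted p = 0.658). On leaving out 1 library it ran from 0.15 to 0.49. The B3gnt7-/- male and female again held the highest and the lowest value. Without that female the log2 difference of B3gnt7-/- from wild-type was 0.45, against 0.15 with it, and on leaving out 1 library it ran from -0.15 to 0.45.

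The constitutive subunits were the more abundant form at the transcript level. Over the 8 libraries Psmb8 was 0.122 to 0.199 times Psmb5, and Psmb9 was 0.111 to 0.188 times Psmb6. Psmb10, the third inducible subunit, was closer to its counterpart at 0.559 to 0.764 times Psmb7. By library, Psmb8/Psmb5 was 0.145 (male) and 0.176 (female) for St6galnac6-/-, 0.177 and 0.122 for B3galt5D116A, 0.199 and 0.132 for B3gnt7-/- and 0.171 and 0.153 for wild-type. By library, Psmb9/Psmb6 was 0.153 (male) and 0.188 (female) for St6galnac6-/-, 0.143 and 0.111 for B3galt5D116A, 0.173 and 0.1504 for B3gnt7-/- and 0.129 and 0.153 for wild-type. Each mutant overlapped wild-type in both of these ratios, and no test was made on them.

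**Figure D3:**
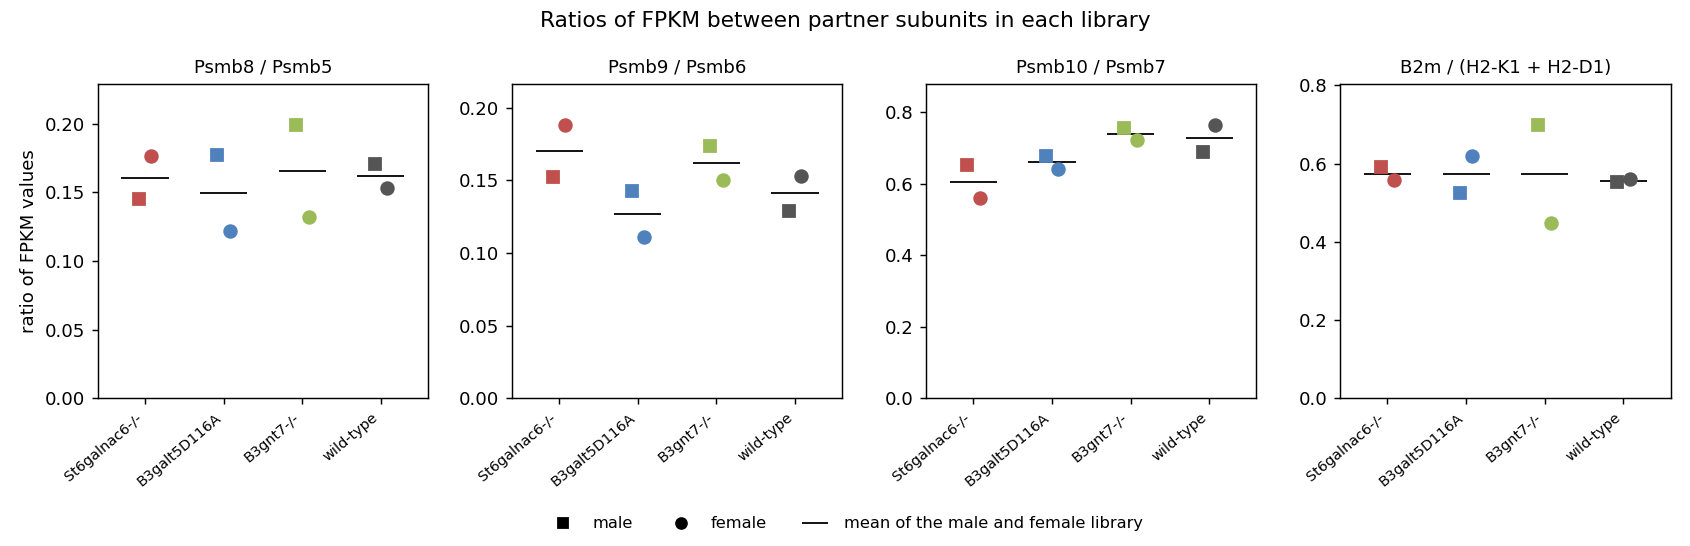
Ratios of FPKM values (vertical axes, from 0) between inducible and constitutive proteasome subunits and between B2m and the summed classical heavy chains, in each library by genotype, with squares for male and circles for female libraries and a line at the mean of both. Psmb10/Psmb7 lies at 0.559 to 0.764, above the other inducible pairs.

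Nlrc5 was the least abundant member and stood at 0.504 FPKM (male) and 0.834 FPKM (female) for St6galnac6-/-, 0.232 and 0.219 for B3galt5D116A, 0.687 and 0.2601 for B3gnt7-/- and 0.138 and 0.116 for wild-type. All 6 mutant libraries were above both wild-type libraries, as were those of 6.09% of 2085 genes at a mean of 0.1 to 1 FPKM and above 0 in every library. Nlrc5 missed the minimum mean of 1 FPKM and was not part of the test. Nlrc5 was also fitted without that filter. At a pseudocount of 1 its log2 difference from wild-type was 0.56 (SE 0.16) in St6galnac6-/-, 0.12 in B3galt5D116A and 0.37 in B3gnt7-/-. None passed (limma adjusted p = 0.506, 0.838 and 0.731 over 17801 genes). At a pseudocount of 0.1, chosen after the data were seen, the differences were 1.73 (SE 0.46), 0.52 and 1.23 in the same order. Again none passed (limma adjusted p = 0.451, 0.722 and 0.704 over 17801 genes). The size of the Nlrc5 difference thus depended on the pseudocount. The 3 differences share the wild-type libraries, which were also the shallowest by relative depth, and the part of depth in these low values was not tested.

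Each mutant was compared with wild-type in 1 limma fit of all 8 libraries on log2(FPKM + 1), with genotype and sex as terms. On that scale the change of a gene at low FPKM is understated. The spread behind each p-value is that between libraries, which may be technical. Of the 10 members, 9 were tested among 11537 genes. None passed an adjusted p of 0.05 (Benjamini-Hochberg over all genes) in St6galnac6-/-, B3galt5D116A or B3gnt7-/-, where 0.0867%, 0.078% and 0.052% of all genes passed. At an unadjusted p under 0.05 there were 0 members in St6galnac6-/- (9.04% of all genes), 1 in B3galt5D116A, Tap2 (11.7%), and 0 in B3gnt7-/- (7.17%). The smallest adjusted p among members was 0.562 in St6galnac6-/- (Tapbp), 0.256 in B3galt5D116A (Tap2) and 0.830 in B3gnt7-/- (Tap2).

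The median log2 difference of the 9 members was -0.0060 in St6galnac6-/- (0.0030 over all tested genes), 0.040 in B3galt5D116A (0.0012) and 0.015 in B3gnt7-/- (-0.0095). Without sign, the median was 0.091, 0.12 and 0.071, where all tested genes had 0.13, 0.16 and 0.13. In St6galnac6-/- 3 members were positive and 6 negative, and in each of B3galt5D116A and B3gnt7-/- 5 were positive and 4 negative. The 95% intervals give the size of difference that these libraries leave possible. For H2-K1 they ran from -0.38 to 0.31 in St6galnac6-/-, -0.23 to 0.46 in B3galt5D116A and -0.33 to 0.36 in B3gnt7-/-. For B2m they were wider, from -0.58 to 0.62, -0.50 to 0.70 and -0.61 to 0.59. For H2-T3 they ran from -0.81 to 0.63, -0.46 to 0.98 and -0.48 to 0.96.

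**Figure D4:**
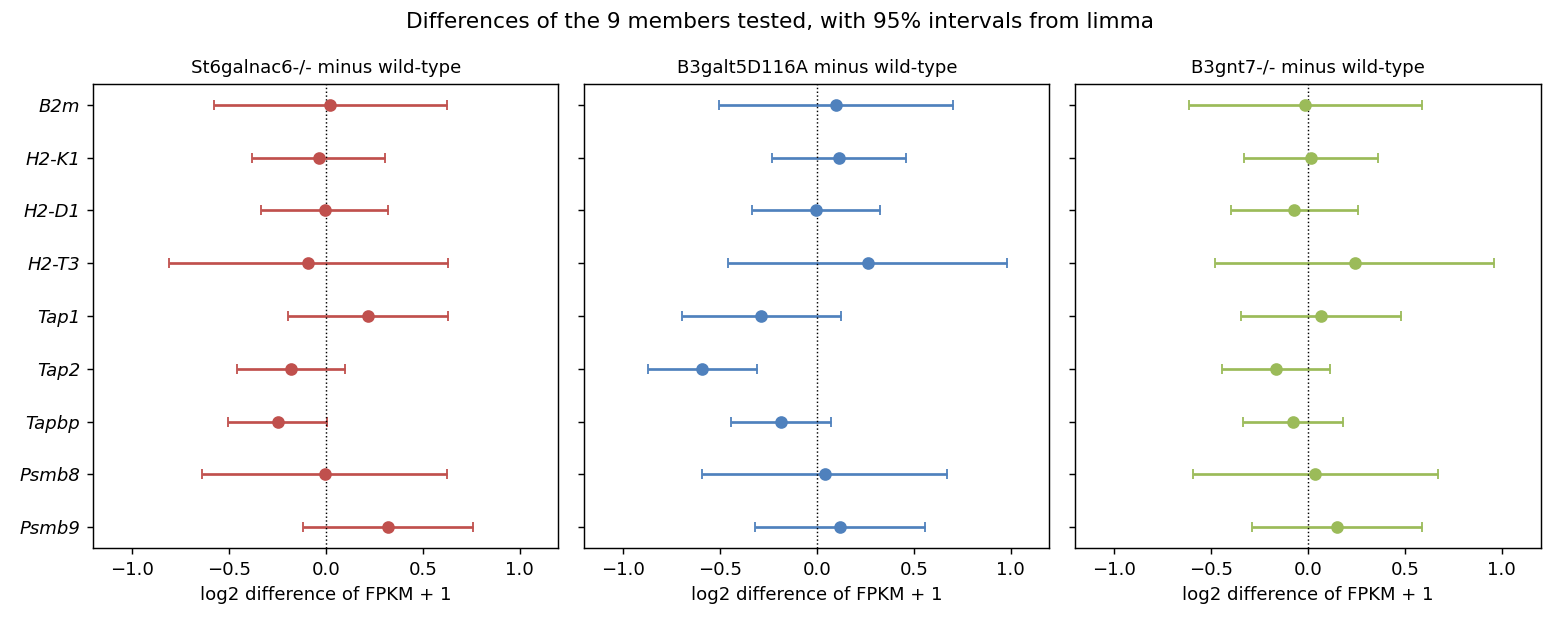
Log2 differences of FPKM + 1 (horizontal axes) of the 9 members tested, each mutant minus wild-type, with 95% intervals from limma. The interval of Tap2 in B3galt5D116A, -0.87 to -0.31, leaves out 0, but its adjusted p was 0.256.

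Groups of 2 libraries often fail to overlap, so such counts were read against all genes. In St6galnac6-/- Psmb9 was above wild-type and Tap2 and Tapbp were below it without overlap, 3 of 9 tested members, where 47.8% of all genes did not overlap. In B3galt5D116A Tap1, Tap2 and Tapbp were below wild-type without overlap, again 3 of 9, against 51.2% of all genes. In B3gnt7-/- Tap2 was below wild-type without overlap, 1 of 9 against 34.7% of all genes.

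Set against each other, the mutants had no member past the threshold. St6galnac6-/- against B3galt5D116A (0.026% of all genes called) had 2 members at an unadjusted p under 0.05 (3.51% of all genes). These were Tap1 with a log2 difference of 0.50 (SE 0.17) and Tap2 with 0.41 (SE 0.12), both at a limma adjusted p of 0.917. St6galnac6-/- against B3gnt7-/- (0.0433% called) had 0 (3.81% of all genes), with adjusted p = 1 for each of the 9. B3galt5D116A against B3gnt7-/- (0.00867% called) had 1 (4.2% of all genes), Tap2 with -0.43 (SE 0.12, limma adjusted p = 0.770). These contrasts share libraries with those against wild-type. Males against females (0.052% of all genes called) gave 0 members, 0 at an unadjusted p under 0.05 (1.66% of all genes) and an adjusted p of 0.9998 for each of the 9. Psmb8 had the largest log2 sex difference of the 9 (0.27), at 20.3 ± 4.29 FPKM in males and 16.5 ± 2.96 FPKM in females (SD, n = 4 each). The B3gnt7-/- pair lay farthest apart, at 26.1 FPKM (male) and 12.8 FPKM (female). In St6galnac6-/- alone the female was above the male, at 20.01 against 15.7 FPKM.

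Other genes of the class I pathway were taken from 3 lists. Of 17 other heavy chains, 12 were tested, and none passed in St6galnac6-/-, B3galt5D116A or B3gnt7-/-, with 0, 2 and 1 at an unadjusted p under 0.05 (limma), all negative. Over all tested genes the shares were 9.04%, 11.7% and 7.17%. H2-T23, the mouse Qa-1 chain that binds NKG2 receptors, stood at 152 FPKM (male) and 122 FPKM (female) for St6galnac6-/-, 130.3 and 124 for B3galt5D116A, 149 and 152 for B3gnt7-/- and 151 and 156 for wild-type. In B3galt5D116A the 2 genes were H2-Q4, at 21.6 and 23.9 FPKM for B3galt5D116A against 30.3 and 27.99 for wild-type (log2 -0.34, adjusted p = 0.384), and H2-Q6, at 1.46 and 1.79 FPKM for B3galt5D116A against 2.91 and 2.64 for wild-type (log2 -0.53, adjusted p = 0.366). In B3gnt7-/- it was H2-T22, a ligand of some γδ T cell receptors, at 3.56 and 2.94 FPKM for B3gnt7-/- against 7.76 and 4.28 for wild-type (log2 -0.68, adjusted p = 0.443). In St6galnac6-/- the smallest p among these chains was that of Fcgrt, the neonatal Fc receptor, at 42.6 and 27.1 FPKM for St6galnac6-/- against 47.05 and 44.7 for wild-type (log2 -0.42, adjusted p = 0.580). H2-Q genes have close paralogs, with 34.9% of the 50-base windows of H2-Q7 found in other genes.

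The list of peptide supply and loading (16 genes, all tested) had 0 genes past the threshold in each mutant, and 0, 1 and 0 at an unadjusted p under 0.05 in St6galnac6-/-, B3galt5D116A and B3gnt7-/- (limma; 9.04%, 11.7% and 7.17% of all tested genes). Its median log2 difference was 0.037, 0.18 and 0.038. In B3galt5D116A 13 of the 16 were positive, none of them past the threshold, where the median over all tested genes was 0.0012. Canx and Erap1 had their highest values in the B3galt5D116A female, the library with the highest FPKM total (639537), and Lnpep its lowest. The part of that library in the positive differences was not tested. The chaperone calnexin, Canx, was at 109.97 and 133 FPKM for B3galt5D116A against 98.1 and 95.7 for wild-type (log2 0.32, adjusted p = 0.479). The aminopeptidase Lnpep had the smallest p, at 10.8 and 8.38 FPKM for B3galt5D116A against 12.8 and 16.3 for wild-type (log2 -0.56, adjusted p = 0.391). Erap1, which trims peptides in the endoplasmic reticulum, stood at 22.99 FPKM (male) and 21.9 FPKM (female) for St6galnac6-/-, 22.6 and 25.02 for B3galt5D116A, 24.5 and 22.4 for B3gnt7-/- and 20.1 and 21.4 for wild-type. Its 6 mutant libraries were above both wild-type libraries, as in 7.23% of tested genes.

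Among 16 regulators of class I genes, 15 were tested and none passed in any mutant. At an unadjusted p under 0.05 there were 2 in St6galnac6-/-, 1 in B3galt5D116A and 2 in B3gnt7-/- (limma), where all tested genes had 9.04%, 11.7% and 7.17%. Jak2, a kinase of the interferon-gamma receptor, stood at 16.5 FPKM (male) and 17.03 FPKM (female) for St6galnac6-/-, 14.5 and 15.1 for B3galt5D116A, 16.7 and 17.4 for B3gnt7-/- and 21.8 and 20.2 for wild-type. Its log2 difference from wild-type was -0.31, -0.48 and -0.28, with adjusted p = 0.488, 0.278 and 0.665. The receptor chain Ifngr1 stood at 139 FPKM (male) and 133 FPKM (female) for St6galnac6-/-, 144 and 153 for B3galt5D116A, 152 and 139 for B3gnt7-/- and 181 and 162 for wild-type. It had adjusted p = 0.504, 0.516 and 0.745. For both genes all 6 mutant libraries were below both wild-type libraries, as in 8.32% of tested genes. Irf1, a transcription factor of class I promoters, was at 72.5 to 93.1 FPKM over the 8 libraries.

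**Figure D5:**
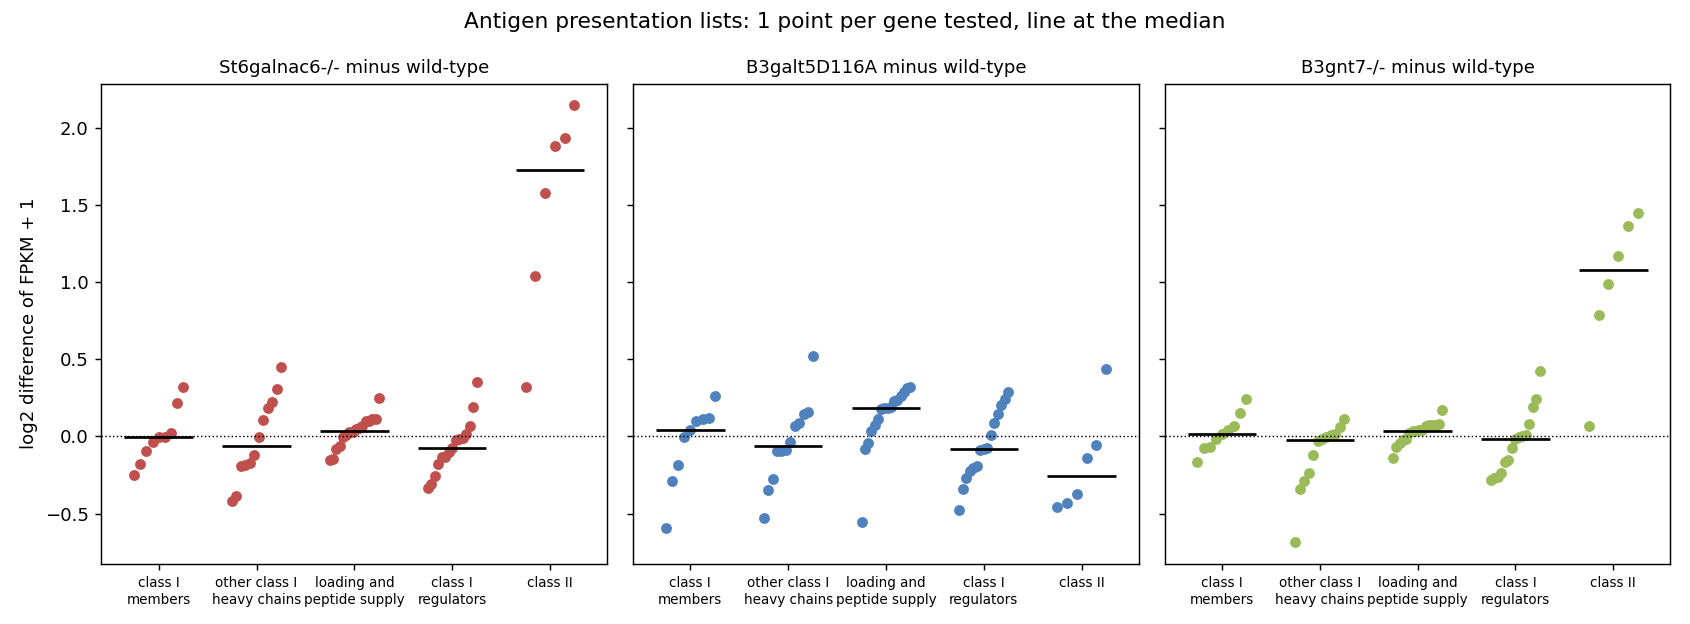
Log2 differences of FPKM + 1 (vertical axis), each mutant minus wild-type, with 1 point per tested gene for the class I members, 3 lists of other class I pathway genes and the class II genes, and a line at each median. The class I medians lie between -0.080 and 0.18, and those of class II at 1.73 in St6galnac6-/-, -0.26 in B3galt5D116A and 1.08 in B3gnt7-/-.

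Class II genes present peptides to CD4+ T cells and were measured beside the class I members. Over 6 tested class II genes the median log2 difference was 1.73 in St6galnac6-/-, -0.26 in B3galt5D116A and 1.08 in B3gnt7-/-. None passed in any mutant, with 5, 0 and 5 at an unadjusted p under 0.05 (limma), where all tested genes had 9.04%, 11.7% and 7.17%. The invariant chain Cd74 stood at 33.97 FPKM (male) and 39.2 FPKM (female) for St6galnac6-/-, 6.43 and 4.13 for B3galt5D116A, 35.9 and 11.9 for B3gnt7-/- and 8.53 and 6.55 for wild-type. The class II transactivator Ciita stood at 0.393 FPKM (male) and 0.527 FPKM (female) for St6galnac6-/-, 0.0286 and 0.0495 for B3galt5D116A, 0.252 and 0.194 for B3gnt7-/- and 0.0832 and 0.07903 for wild-type. Myeloid markers summed to 29.1 (male) and 34.6 (female) for St6galnac6-/-, 28.7 and 35.2 for B3galt5D116A, 39.4 and 39.8 for B3gnt7-/- and 29.8 and 27.8 for wild-type, in FPKM. Without Cd14, left out after its values were seen, the other 11 summed to 7.17 FPKM (male) and 8.31 FPKM (female) for St6galnac6-/-, 7.47 and 13.2 for B3galt5D116A, 11.9 and 18.5 for B3gnt7-/- and 10.7 and 8.34 for wild-type. The part of myeloid cells in the class II values was not tested. Nor was the difference between class I and class II genes.

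Interferon-induced genes outside the class I pathway had 18 of 22 members tested, with 0 past the threshold in each mutant and 3, 5 and 7 at an unadjusted p under 0.05 (limma) in St6galnac6-/-, B3galt5D116A and B3gnt7-/- (9.04%, 11.7% and 7.17% of all tested genes). Of these 2, 4 and 6 were positive and 1 was negative in each mutant. The negative one was the antiviral enzyme Rsad2 in St6galnac6-/- (log2 -0.48, adjusted p = 0.417) and B3galt5D116A (-0.48, adjusted p = 0.366), and the chemokine Cxcl10 in B3gnt7-/- (-1.58, adjusted p = 0.658). Cxcl10 stood at 7.21 FPKM (male) and 0.781 FPKM (female) for B3gnt7-/- against 11.8 and 9.18 for wild-type. Its difference thus lay mostly in the B3gnt7-/- female, the library with the high stromal marker sum. In St6galnac6-/- the immunity-related GTPase Irgm1 had the smallest p, at 16.4 and 18.9 FPKM for St6galnac6-/- against 11.1 and 12.2 for wild-type (log2 0.55, adjusted p = 0.264). In B3galt5D116A it was Ifit3, an interferon-induced protein with tetratricopeptide repeats, at 1.58 and 1.96 FPKM for B3galt5D116A against 0.517 and 0.382 for wild-type (log2 0.93, adjusted p = 0.343). In B3gnt7-/- it was Ifit1, an antiviral RNA-binding protein, at 6.16 and 4.64 FPKM for B3gnt7-/- against 2.25 and 1.73 for wild-type (log2 1.09, adjusted p = 0.339).

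The members were compared with each other over the 8 libraries in 5 pairs, chosen with the values known. The adjustment covers only these 5 pairs, and the permutation moved libraries freely across genotype and sex. An adjusted p under 0.05 here therefore describes the chosen pair and does not test whether 2 members are related. B2m and H2-K1 had a Pearson r of 0.71 (exact permutation p = 0.0410, adjusted p = 0.0823) and a Spearman rho of 0.88 (exact permutation p = 0.00724, adjusted p = 0.0362). Without the 2 libraries farthest from the median of B2m, both from B3gnt7-/-, r was 0.78. H2-K1 and H2-D1 had a Pearson r of 0.67 (exact permutation p = 0.0659, adjusted p = 0.0823) and a Spearman rho of 0.69 (exact permutation p = 0.0694, adjusted p = 0.104), and r was 0.77 without the 2 libraries farthest from the median of H2-K1. B2m and Psmb8 had a Pearson r of 0.80 (exact permutation p = 0.0266, adjusted p = 0.0823) and a Spearman rho of 0.67 (exact permutation p = 0.0831, adjusted p = 0.104). Psmb8 and Psmb9 had a Pearson r of 0.70 (exact permutation p = 0.0541, adjusted p = 0.0823) and a Spearman rho of 0.67 (exact permutation p = 0.0831, adjusted p = 0.104). Both relations of Psmb8 rest on the B3gnt7-/- libraries, since r was -0.10 and 0.18 without them. Tap1 and Psmb9, whose promoter windows overlap, had a Pearson r of 0.53 (exact permutation p = 0.168, adjusted p = 0.168) and a Spearman rho of 0.48 (exact permutation p = 0.243, adjusted p = 0.243), and r was 0.47 without the 2 libraries farthest from the median of Tap1. A genotype holds 2 libraries and a sex 4, too few for r within either.

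The mean of the 9 members' log2 values, each centred on its own mean, was lowest in the B3gnt7-/- female library (-0.14) and highest in the male of that genotype (0.20). Of 11435 genes ranked, those most like it over the 8 libraries were Commd2 (Pearson r = 0.94), the ornithine decarboxylase Odc1 (0.92), the DNA polymerase alpha subunit Pola2 (0.91), the sarcoglycan Sgcb (0.91) and the tRNA splicing subunit Tsen15 (0.90). With 8 libraries and that many genes such values describe the ranking only.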

How the data were processed

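RNA came from the miRNeasy Micro Kit and libraries from the TruSeq stranded mRNA kit, per the labels' protocols. The authors deposited 1 table of FPKM values per library. The submitters' processing notes name the build mm10, Cuffdiff 2.2.1, SAMtools 0.1.18, Bowtie2 2.2.8 and TopHat2 2.1.1, while parameters, annotation and scaling between libraries are not given in the sources used here. A pseudocount of 1 was added before the log2 step, giving log2(FPKM + 1). A mean of 1 FPKM or more was required of a gene, which left 11537, and these entered limma 3.58.1 (R 4.3.3; lmFit, contrasts, eBayes with a trend). Genotype and sex were terms of 1 fit, with 3 residual and 4.02 prior degrees of freedom, two-sided p-values and Benjamini-Hochberg adjustment over the tested genes of each comparison. The script was tested on simulated data.

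All members were named. Of the pathway lists, genes past the threshold were to be named, with up to 4 per list of smallest p, and of the class II and interferon lists up to 2, of which the text gives a part. H2-T23, Ciita, Irf1, Cd1d1, Mr1, Car1, Cd68, Lyz2, Cd14, Dcn, Col3a1, Acta2, Pecam1, Rsad2, Cxcl10, H2-Bl and H2-Q7 were named outside this rule, after their values were seen. The 5 genes most like the members were ranked by Pearson r. The members and lists were chosen with earlier results of these data known. The lymphocyte marker Trdc has no row in the tables. Promoter sequences come from RefSeq (GRCm38.p6) and were aligned with Biopython 1.88, and gene positions and transcripts come from GENCODE M21 on mm10. With no counts deposited, counting error is unknown, and a 0 may stand for an estimate that failed. Sex served as the block, since the labels number no replicates. Alternatives were pseudocounts of 0.1 and 5, no filter, a stricter filter of 5 FPKM, quantile normalization, median centring, no sex term, the 2 genotypes compared alone, and each library left out. No filter with a pseudocount of 0.1 was added after the data were seen.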

Additional observations from a re-analysis of the deposited data

Results flagged for a closer look

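Tap2 in the 4 female libraries was flagged because 1 sample stood apart. The B3galt5D116A female was at 11.04 FPKM, and the other 3 were at 15.2 to 15.9 FPKM. The gap to the nearest value was 0.849 of the range of the 4, above Dixon's 95% critical value for 4 samples. Of the 10 members in males and in females, 20 groups of 4 in all, no other was flagged, and chance flags about 1 in 20 groups. The 4 libraries are of 4 genotypes, and the B3galt5D116A male was also the lowest of the males for Tap2.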

How the results depend on the processing

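The number of members past the threshold was 0 in each of the 7 comparisons and stayed 0 in all 117 alternative counts, including those with no replicate block (no sex term), which also gave 0. Of 459 alternative values of the 27 member differences from wild-type, 0 passed the threshold and 28 changed sign, 23 of them on leaving out a library. None of these members had passed, so no called direction was lost, and the cause was not tested. Where a library is left out, its genotype has 1 library, which is assumed to vary like the others. In St6galnac6-/- the ranges of log2 differences on leaving out a library were -0.092 to 0.14 for B2m, -0.14 to 0.065 for H2-K1, -0.12 to 0.11 for H2-D1, -0.44 to 0.26 for H2-T3, -0.053 to 0.49 for Tap1 and -0.41 to 0.40 for Psmb8. In B3galt5D116A they were -0.21 to 0.41 for B2m, -0.061 to 0.054 for H2-D1, -0.29 to 0.82 for H2-T3 and -0.042 to 0.28 for Psmb9. In B3gnt7-/- they were -0.45 to 0.43 for B2m, -0.086 to 0.12 for H2-K1, -0.17 to 0.029 for H2-D1, -0.036 to 0.52 for H2-T3, -0.12 to 0.26 for Tap1, -0.43 to 0.51 for Psmb8 and -0.15 to 0.45 for Psmb9. The median over the 9 members ranged from -0.11 to 0.11 in St6galnac6-/-, from -0.17 to 0.079 in B3galt5D116A, from -0.12 to 0.26 in B3gnt7-/- on leaving out a library. With quantile normalization H2-K1 and H2-D1 in St6galnac6-/- were at 0.029 and 0.11, and B2m and H2-D1 in B3gnt7-/- at 0.081 and 0.043. With median centring H2-D1 in B3galt5D116A was at 0.0086. Tap2 in B3galt5D116A stayed between -0.71 and -0.46 under the 17 alternatives. Depth is known only relative to the wild-type male library, which limits what can be read from Nlrc5 and other genes under 1 FPKM.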

Other observations

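Class I-related chains with other ligands differed in level. The lipid-presenting chain Cd1d1 was at 2.11 to 4.16 FPKM over the 8 libraries. Mr1, which presents vitamin B metabolites, reached at most 0.266 FPKM and was listed at 0 in 2 libraries. Hfe, a regulator of iron uptake, stood at 8.16 FPKM (male) and 6.45 FPKM (female) for St6galnac6-/-, 5.98 and 6.85 for B3galt5D116A, 4.65 and 3.92 for B3gnt7-/- and 5.43 and 5.94 for wild-type, with limma adjusted p = 0.624 in St6galnac6-/-, 0.712 in B3galt5D116A and 0.730 in B3gnt7-/-. The heavy chain gene H2-Bl stood at 0.971 FPKM (male) and 1.11 FPKM (female) for St6galnac6-/-, 0.443 and 0.426 for B3galt5D116A, 0.765 and 0.8204 for B3gnt7-/- and 1.07 and 0.918 for wild-type. The B3galt5D116A libraries were the lowest for H2-Bl, which had a mean of 0.815 FPKM, missed the filter and was not tested. How often both B3galt5D116A libraries are the lowest of the 8 was not counted over all genes. The looser condition of no overlap between B3galt5D116A and wild-type, in either direction, held for 51.2% of tested genes, a set without H2-Bl.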
